A study of Mus musculus with 13 samples.

Results

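Glycolysis turns glucose into pyruvate and lactate, and the genes described here are 10 of its enzymes and regulators: Hk1, Hk2, Gpi1, Pfkp, Pfkfb3, Aldoa, Pgk1, Eno1, Pkm and Ldha. They were chosen by symbol and are 10 of the 24421 gene symbols in the count table. The table comes from bulk RNA sequencing of liver endothelial cells, the cells that line the blood vessels and sinusoids of the liver. Wild-type mice were either germ-free, raised without live microbes (GF, n = 6 libraries, numbered 8 to 13), or conventionally raised, with a normal microbiota (CONV-R, n = 7 libraries, numbered 1 to 7). The comparison asks how the transcriptome of these cells differs between the 2 ways of raising the mice. The labels give neither age, sex, diet nor isolation method. Nor do they say whether each library came from a separate animal, so each p-value reflects only how far these libraries scatter, which may be partly technical.

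Hexokinases trap glucose in the cell, phosphofructokinase commits it to glycolysis, and the bifunctional enzyme encoded by Pfkfb3 makes fructose 2,6-bisphosphate, a strong activator of phosphofructokinase. Endothelial cells are known for drawing much of their ATP from glycolysis, and PFKFB3 is known for its role in vessel sprouting. Several of these genes are textbook targets of hypoxia-inducible factors, which bind a short core sequence in promoters and enhancers.

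The depth was 23407168 to 35478115 counts per GF library and 7590320 to 32869515 per CONV-R library. CONV-R 1, 5, 6 and 7 each held fewer counts than every other library. All 10 markers of sinusoidal endothelium, such as Stab2 and Lyve1, were measured well above the test's minimum, 5 of 10 were higher and 0 lower in GF, and their summed level was 30828 to 33963 CPM (counts scaled to a common library size) in GF and 16279 to 29764 in CONV-R libraries. RNA of other cells differed between the groups. Hepatocyte markers summed to 781 to 1232 CPM in GF and 1322 to 7207 in CONV-R libraries, with 10 of 10 lower in GF. Neutrophil markers summed to 71.8 to 158 CPM in GF and 113 to 2087 in CONV-R libraries, with 6 of 7 tested lower in GF. Kupffer cell markers summed to 2420 to 3828 CPM in GF and 2355 to 7491 in CONV-R libraries, and 0 of 10 passed in either direction. B cell markers summed to 15.7 to 29.4 CPM in GF and 42.2 to 1218 in CONV-R libraries, with 4 of 4 lower, and cholangiocyte markers to 40.9 to 75.4 in GF and 7.94 to 53.02 in CONV-R libraries, with 3 of 4 higher. The B cell sum of 1218 CPM was in CONV-R 1 alone, and no other CONV-R library exceeded 58.4. CONV-R 1 also had the lowest endothelial and the highest hepatocyte sum. Of T and NK cell and of stellate cell markers 0 of 4 each passed. The 3 highest sums lay in CONV-R 1, 5 and 7 for hepatocytes, CONV-R 5, 6 and 7 for neutrophils and CONV-R 1, 5 and 6 for Kupffer cells. In bulk RNA, fewer cells of a type and less RNA per cell cannot be told apart.

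The promoters of these genes are shown first, because glycolytic genes are known targets of hypoxia-inducible factors. Windows of 250 bases before to 50 bases after each annotated start were taken from RefSeq on GRCm38.p6, and 18 windows covered all 10 genes. Both strands were searched for ACGTG and GCGTG, the 2 forms of the hypoxia response element core, and for CACGTG, the E-box, which always contains the first form. The first form or its reverse complement occurred in windows of 7 of the 10 genes (Aldoa, Hk1, Hk2, Ldha, Pfkfb3, Pgk1 and Pkm), while 21.8% of the 27025 genes in the promoter table had it. By window it was 9 of 18, against 19.6% of the 32851 windows in the table. Windows of the same gene can overlap, as in Aldoa and Eno1, so a match can count more than once. The shares over all promoters were not matched for base composition. GCGTG occurred in 5 of the 10, against 35.2% of all genes, and at least 1 of the 2 forms in 9 of the 10, against 46.7%. CACGTG occurred only in windows of Ldha and Pfkfb3, against 8.09% of all genes. A match is a description of the letters, not a binding site. The 4 windows below show the range, from 7 overlapping or separate core matches in Ldha to 0 in Gpi1, with the Hk1 and Pfkfb3 windows between them because the results below turn on those genes. They run 5′ to 3′ on the gene's strand, in lower case, with core matches on either strand in capitals.
Hk1, chr10:62340372-62340671, minus strand: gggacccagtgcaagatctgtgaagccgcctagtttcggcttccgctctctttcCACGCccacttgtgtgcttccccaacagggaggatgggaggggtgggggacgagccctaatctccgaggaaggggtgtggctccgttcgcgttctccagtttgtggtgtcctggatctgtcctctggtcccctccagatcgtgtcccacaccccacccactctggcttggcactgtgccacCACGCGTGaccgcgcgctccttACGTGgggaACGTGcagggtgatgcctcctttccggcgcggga
Pfkfb3, chr2:11502041-11502340, minus strand: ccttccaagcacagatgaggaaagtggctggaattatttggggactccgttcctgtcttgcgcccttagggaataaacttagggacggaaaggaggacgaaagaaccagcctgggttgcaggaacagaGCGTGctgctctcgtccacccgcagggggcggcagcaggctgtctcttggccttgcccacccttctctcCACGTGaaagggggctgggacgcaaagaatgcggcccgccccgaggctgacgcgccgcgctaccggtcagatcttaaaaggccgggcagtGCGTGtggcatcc
Ldha, chr7:46845554-46845853, plus strand: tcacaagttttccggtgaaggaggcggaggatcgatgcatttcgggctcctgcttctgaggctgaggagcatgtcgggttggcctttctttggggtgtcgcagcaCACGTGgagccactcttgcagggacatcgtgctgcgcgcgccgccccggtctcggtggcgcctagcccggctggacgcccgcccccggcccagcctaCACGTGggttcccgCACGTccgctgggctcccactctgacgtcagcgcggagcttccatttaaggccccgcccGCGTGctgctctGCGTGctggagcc
Gpi1, chr7:34230287-34230586, minus strand: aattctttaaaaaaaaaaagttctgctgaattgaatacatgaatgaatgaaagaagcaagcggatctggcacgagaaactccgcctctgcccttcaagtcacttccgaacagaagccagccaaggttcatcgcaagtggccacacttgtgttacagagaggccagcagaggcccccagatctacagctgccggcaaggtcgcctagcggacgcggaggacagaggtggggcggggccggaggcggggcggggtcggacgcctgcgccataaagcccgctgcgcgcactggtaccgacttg
The Hk1 window shown holds 5 core matches and the Pfkfb3 window shown 4, of which CACGTG counts once for each strand. These genes and Ldha each have another window, not shown, with 0 matches in Hk1, 1 in Pfkfb3 and 2 in Ldha. Aldoa and Pkm also have a window with 0 matches.

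Across the set, transcript levels in GF and CONV-R endothelial libraries were close. Hk1 was higher in GF, and the other 8 tested genes did not pass the threshold, with fitted folds of 0.746 to 1.03. Of the 9 genes tested, 1 was higher and 0 were lower in GF at an adjusted p of 0.05 (edgeR quasi-likelihood test, Benjamini-Hochberg over 13915 genes), where 11.4% of all tested genes were higher and 12.7% lower. At an unadjusted p of 0.05 the counts were the same, with 1 higher and 0 lower, where 18.7% of all tested genes were higher and 20.2% lower. DESeq2 called 1 higher and 0 lower (13.6% and 15.9% of all tested genes), and limma-voom called 0 and 0 (13.7% and 11.8%). The median log2 fold change, GF over CONV-R, was -0.01 for the 9 genes and -0.01 for all tested genes. The summed level of the set was 1532, 1597 and 1792 CPM (lowest, median and highest) in GF and 1408, 1633 and 1746 in CONV-R libraries. In 0 of the 9 genes did the GF and CONV-R libraries separate fully, while over all tested genes every GF library was above every CONV-R library in 5.94% and below every one in 4.32%, together 10.3%.

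Calls depended on marker covariates and on which CONV-R libraries entered the fit. The hepatocyte marker sums of the groups did not overlap, so in a fit with that sum as a covariate sum and group cannot be fully told apart. With this covariate 0 of the 9 genes were called, and 1.79% of all tested genes were higher and 1.55% lower. With the neutrophil sum as a covariate 0 of the 9 were called (3.71% of all genes higher, 5.88% lower), and with the Kupffer cell sum 0 of the 9 (6.57% higher, 5.68% lower). The library names also carry a code whose meaning is not stated. Its number is 9 or 10 in CONV-R and 6 in every GF library, so it cannot be told apart from the group. Against code number 9 alone 1 of the 9 was higher and 1 lower (16.2% and 17.9% of all genes), and against code number 10 alone 0 and 0 (6.89% and 7.05%). Of 32 genes called in the set or chosen beside it by rule, 5 kept their call with the hepatocyte covariate, among them Bnip3, Ddit4, Pfkm and Slc16a1. With the neutrophil covariate 7 kept it (Bnip3, Bpgm, Ddit4, G6pc, Pdk1, Pdk4 and Pgm1), with the Kupffer cell covariate 18, against code number 9 alone 27, against code number 10 alone 20 and with limma-voom 25. The part of other cells in the remaining calls was not tested further.

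**Figure D1:**
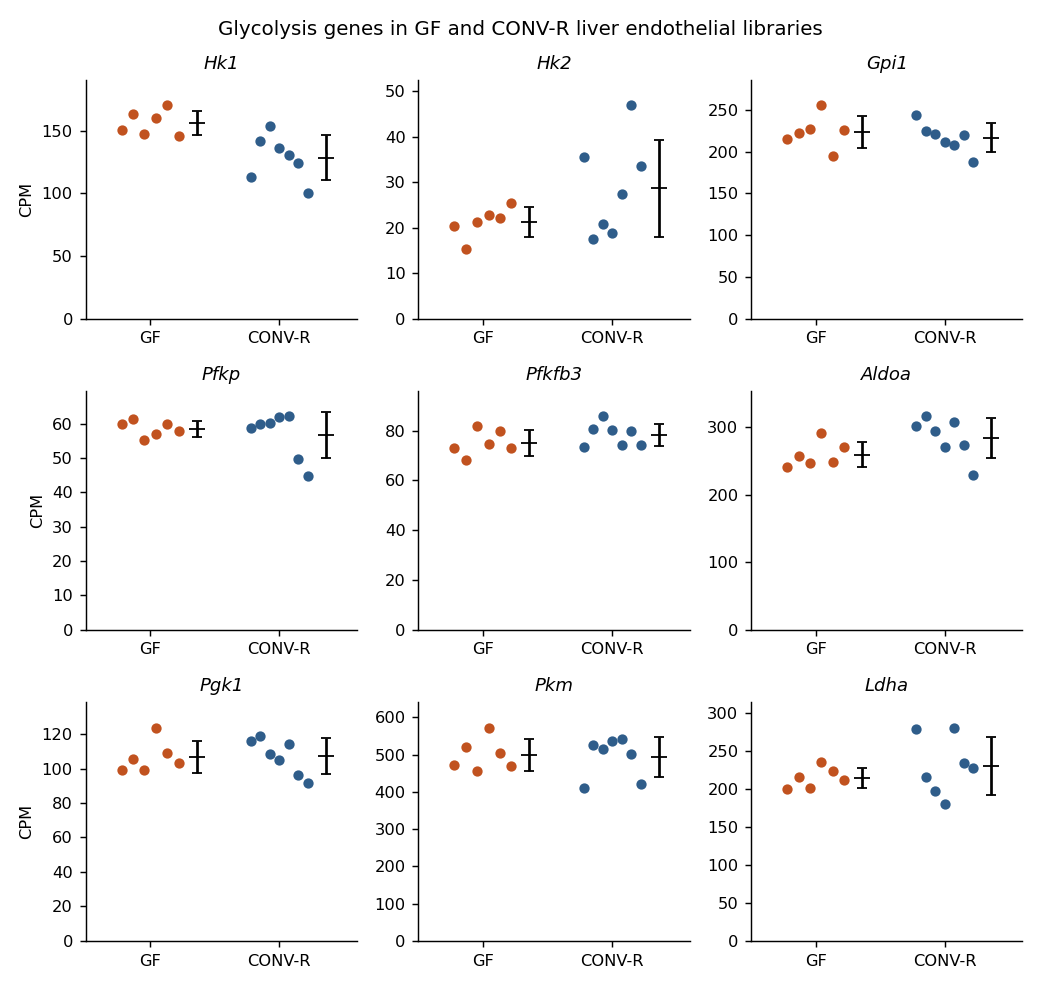
Level in CPM of the scaled library (vertical axes from 0) of the 9 tested genes in each GF (orange) and CONV-R (blue) library, with the mean and SD beside the points. The GF libraries of Hk1 lie between 146 and 170.4 CPM and those of Pfkfb3 between 68.1 and 81.9 CPM, and in each gene the 2 groups overlap.

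Hk1 encodes hexokinase 1, the broadly expressed enzyme that binds the outer mitochondrial membrane and phosphorylates glucose. It lies on chromosome 10 from 62268855 to 62379920 (GRCm38.p6) and is protein-coding, as are all genes of the set. Hk1 measured 146, 155 and 170.4 CPM (lowest, median and highest) in GF and 100.5, 131 and 154 in CONV-R libraries. All 6 GF libraries were above the CONV-R median, although CONV-R 3, at 154 CPM, exceeded 3 of them, so the groups overlapped. The means were 156 ± 9.76 CPM in GF and 129 ± 18.0 in CONV-R (SD, n = 6 and 7), a fold of 1.21 with a 95% interval of 1.06 to 1.39 and a log2 fold change of 0.28 ± 0.09 (SE, adjusted p = 0.0356, edgeR).
The call was near the threshold. It was lost without any 1 of 8 libraries (GF 8, 9, 10, 11 or 12, or CONV-R 1, 5 or 6; adjusted p up to 0.0898), and it did not pass with limma-voom (log2 fold change 0.20, adjusted p = 0.0544). With marker sums as a covariate the log2 fold change was -0.0020 (hepatocyte), 0.14 (neutrophil, adjusted p = 0.547) and 0.21 (Kupffer cell, adjusted p = 0.150). Against CONV-R libraries of code number 10 alone it was 0.20 (adjusted p = 0.143) and against those of code number 9 alone 0.39 (adjusted p = 0.00668).

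Hk2 encodes hexokinase 2, the inducible form that rises in many cells with growth and glycolytic demand, and lies on chromosome 6 from 82725025 to 82774454. It measured 15.4, 21.7 and 25.4 CPM (lowest, median and highest) in GF and 17.6, 27.4 and 46.9 in CONV-R libraries. CONV-R 1, 5, 6 and 7 were above every GF library, and CONV-R 2, 3 and 4 lay within the GF range. The means were 21.2 ± 3.31 CPM in GF and 28.6 ± 10.7 in CONV-R (SD), a log2 fold change of -0.42 ± 0.22 (SE, fold 0.746, 95% interval 0.542 to 1.03, adjusted p = 0.161, edgeR). The 4 high CONV-R libraries are the 4 with the highest Kupffer cell marker sums and also the 4 with the fewest counts. They hold the highest Hk2 levels, so leaving them out had to raise the log2 fold change and tests nothing. Without them the log2 fold change was 0.15 (adjusted p = 0.440, edgeR). Against code number 9 alone it was -0.76 (adjusted p = 0.00600) and against code number 10 alone -0.12 (adjusted p = 0.702). With marker sums as a covariate it was -0.034 (Kupffer cell, adjusted p = 0.894), 0.13 (hepatocyte, adjusted p = 0.877) and -0.11 (neutrophil, adjusted p = 0.851). Depth and the marker sums cannot be told apart in these libraries.

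The balance of Hk2 to Hk1 counts within a library does not depend on how libraries are scaled. Its log2 ratio was -2.89 ± 0.29 in GF and -2.24 ± 0.69 in CONV-R (SD), so Hk1 counts exceeded Hk2 counts in every library. All 6 GF libraries lay below the CONV-R median of this ratio. The difference of -0.66 did not pass the exact two-sided permutation test after adjustment over the 4 balances tested (p = 0.0641, adjusted p = 0.128, smallest possible p 0.00117). Against code number 9 alone the difference was -1.15 (adjusted p = 0.0476, exact permutation test). Every library of code number 9 had a higher ratio than every GF library, so its fewer splits allowed no smaller p. Against code number 10 alone the difference was -0.29 (adjusted p = 0.505, same test), and without CONV-R 1, 5, 6 and 7 it was 0.026. Those libraries had the highest ratios of all, so leaving them out had to move the difference upwards.

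Gpi1 encodes glucose-6-phosphate isomerase, which turns glucose 6-phosphate into fructose 6-phosphate (chromosome 7, 34201327 to 34230336). Its level was 195, 224 and 255 CPM (lowest, median and highest) in GF and 188, 220.2 and 244 in CONV-R libraries. Both groups spread over nearly the same range. The fold was 1.03 with a 95% interval of 0.927 to 1.15 (adjusted p = 0.685, edgeR).

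Pfkp encodes the platelet isoform of phosphofructokinase, the committed step (chromosome 13, 6579874 to 6649060). It measured 55.2, 58.8 and 61.4 CPM (lowest, median and highest) in GF and 44.7, 59.7 and 62.1 in CONV-R libraries. CONV-R 6 and 7, at 49.6 and 44.7 CPM, lay below every other library. The fold was 1.03 with a 95% interval of 0.920 to 1.15 (adjusted p = 0.721, edgeR). Of the 100-base windows of its transcript 16.0% also occur, on either strand, in transcripts of Pitrm1. The strand of the match was not told apart, so whether reads there are shared is not known. Among the other phosphofructokinase genes Pfkl, the liver isoform, averaged 77.6 ± 8.2 CPM in GF and 68.7 ± 6.55 in CONV-R (log2 fold change 0.17 ± 0.08, adjusted p = 0.116), and Pfkm, the muscle isoform, was lower at 22.9 ± 1.21 in GF and 27.8 ± 3.87 in CONV-R (log2 fold change -0.28 ± 0.09, adjusted p = 0.0309). The call of Pfkm was lost without GF 8, 9, 11, 12 or 13 or CONV-R 4 (adjusted p up to 0.0702). The log2 ratio of Pfkp to Pfkl counts was -0.40 ± 0.17 in GF and -0.28 ± 0.16 in CONV-R (SD; exact permutation p = 0.220, adjusted p = 0.220).

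Pfkfb3, whose product activates phosphofructokinase, differed little between libraries. It lies on chromosome 2 from 11471430 to 11554071. Its level was 68.1, 73.7 and 81.9 CPM (lowest, median and highest) in GF and 73.6, 79.7 and 85.7 in CONV-R libraries, so that 2 of 6 GF libraries were above the CONV-R median and the ranges overlapped over most of their width. The means were 75.0 ± 5.07 CPM in GF and 78.4 ± 4.50 in CONV-R (SD), with a log2 fold change of -0.06 ± 0.06 (SE) and a fold of 0.957 (95% interval 0.881 to 1.04, adjusted p = 0.422, edgeR). It did not pass the threshold in any of 26 alternative settings, where the log2 fold change ran from -0.16 to -0.03. The coefficient of variation between libraries was 6.75% in GF and 5.74% in CONV-R, where the median over all tested genes was 8.83% in GF and 17.9% in CONV-R.

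Of the other 3 genes that encode bifunctional enzymes of this family, Pfkfb4 was lower in GF and Pfkfb2, the most abundant of the 3, was not called. Pfkfb4 measured 3.93, 5.22 and 6.28 CPM (lowest, median and highest) in GF and 8.49, 12.1 and 25.5 in CONV-R libraries, a log2 fold change of -1.48 ± 0.27 (SE, adjusted p = 0.00253, edgeR). Every GF library was below every CONV-R library. The highest values, in CONV-R 6 and 7, fell in the libraries with the highest neutrophil marker sums. The next highest was in CONV-R 1, whose neutrophil sum lay within the GF range. With the neutrophil sum as a covariate the log2 fold change of Pfkfb4 was -0.86 (adjusted p = 0.0848), and with the hepatocyte sum it was -0.66 (adjusted p = 0.345). Pfkfb1, the liver and muscle form, averaged 2.66 ± 0.470 CPM in GF and 3.90 ± 0.929 in CONV-R (SD; log2 fold change -0.54 ± 0.18, adjusted p = 0.0418), a call lost without GF 8, 9, 10, 11 or 13 or CONV-R 1, 5 or 7 (adjusted p up to 0.0900). With the hepatocyte covariate the log2 fold change of Pfkfb1 was -0.04 (adjusted p = 0.958). Pfkfb2 averaged 54.7 ± 5.87 CPM in GF and 56.4 ± 8.46 in CONV-R (log2 fold change -0.04 ± 0.10, adjusted p = 0.780), and its count is uncertain because 39.2% of its 100-base transcript windows also occur in Gm29427. The log2 ratio of Pfkfb3 counts to the summed counts of the other 3 was 0.27 ± 0.10 in GF and 0.08 ± 0.25 in CONV-R (SD), a difference of 0.19 that did not pass the exact permutation test (p = 0.107, adjusted p = 0.143).

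Aldoa encodes aldolase A, which splits fructose 1,6-bisphosphate (chromosome 7, 126795234 to 126800994). It measured 241, 253 and 291 CPM (lowest, median and highest) in GF and 229, 293 and 315 in CONV-R libraries. All 6 GF libraries were below the CONV-R median, but CONV-R 7 had the lowest value of all. The fold was 0.911 with a 95% interval of 0.811 to 1.02 (adjusted p = 0.215, edgeR). With libraries scaled by their totals in place of TMM, which moved the median of all genes to -0.11 on the log2 scale, the log2 fold change of Aldoa was -0.23 in place of -0.13 and passed the threshold (adjusted p = 0.0378).

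Pgk1 encodes phosphoglycerate kinase 1, the first step of the pathway that yields ATP (chromosome X, 106187100 to 106203699). Its level was 98.9, 104 and 124 CPM (lowest, median and highest) in GF and 91.5, 109 and 119.1 in CONV-R libraries. The groups spread over much the same range. The fold was 0.993 with a 95% interval of 0.889 to 1.11 (adjusted p = 0.944, edgeR). Of its 100-base transcript windows 67.0% also occur in another gene's transcript, mostly Pgk1-rs7, so the count of Pgk1 is uncertain.

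Eno1 encodes enolase 1, which makes phosphoenolpyruvate (chromosome 4, 150236708 to 150248879), and could not be tested. Its row held 1 count in GF 10, 1 count in CONV-R 4 and 0 in the other 11 libraries. A near-identical copy, Eno1b, shares 58.6% of the 100-base windows of the Eno1 transcript, and its row held 2 to 11 counts per library. The handling of multi-mapping reads was not given in the sources used here, so neither row is read as the level of enolase 1 RNA. Eno3, the muscle enolase, was measured at 10.9 ± 1.21 CPM in GF and 15.6 ± 3.74 in CONV-R (SD) and was lower in GF (log2 fold change -0.52 ± 0.15, adjusted p = 0.0218, edgeR; 0.0525 without GF 11).

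Pkm encodes the pyruvate kinase of muscle and most other tissues, which makes pyruvate and ATP (chromosome 9, 59656576 to 59679372). It measured 457, 488 and 572 CPM (lowest, median and highest) in GF and 411, 516 and 542 in CONV-R libraries. The groups overlapped throughout, with the highest library in GF and the lowest in CONV-R. The fold was 1.01 with a 95% interval of 0.891 to 1.15 (adjusted p = 0.906, edgeR). A count per symbol does not separate its M1 and M2 splice forms. Pklr, the liver and red cell pyruvate kinase, was named after its values were seen: it averaged 3.04 ± 0.509 CPM in GF and 5.38 ± 2.58 in CONV-R (log2 fold change -0.82 ± 0.28, adjusted p = 0.0493), and hepatocyte markers were lower in GF too.

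Ldha encodes the lactate dehydrogenase subunit that favours lactate formation (chromosome 7, 46842274 to 46855627). It measured 200.3, 213 and 235 CPM (lowest, median and highest) in GF and 180.1, 227 and 280.4 in CONV-R libraries. CONV-R 1 and 5, at 279 and 280.4 CPM, were above every GF library, and CONV-R 3 and 4, at 197 and 180.1, below every one. The fold was 0.931 with a 95% interval of 0.801 to 1.08 (adjusted p = 0.469, edgeR). Ldhb, whose subunit favours the oxidation of lactate, was higher in GF at 69.7 ± 3.31 CPM, against 50.9 ± 13.3 in CONV-R (SD; log2 fold change 0.45 ± 0.15, adjusted p = 0.0418). This call was lost without any 1 GF library and without CONV-R 1, 5, 6 or 7 (adjusted p up to 0.0880).
The log2 ratio of Ldha to Ldhb counts was 1.62 ± 0.15 in GF and 2.21 ± 0.55 in CONV-R (SD). The GF libraries kept within 1.47 to 1.83, while CONV-R libraries reached 2.92. The difference of -0.59 had an exact two-sided permutation p of 0.0291 and an adjusted p of 0.117 over the 4 balances, so it did not pass. Against code number 9 alone it was -0.89 (adjusted p = 0.0476, exact permutation test). Here too every library of code number 9 was above every GF library, so no smaller p was possible with its fewer splits. Against code number 10 alone the difference was -0.36 (adjusted p = 0.495, same test), and without CONV-R 1, 5, 6 and 7 it was -0.042. Those libraries had the highest ratios of all here too, so leaving them out had to shrink the difference.

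**Figure D2:**
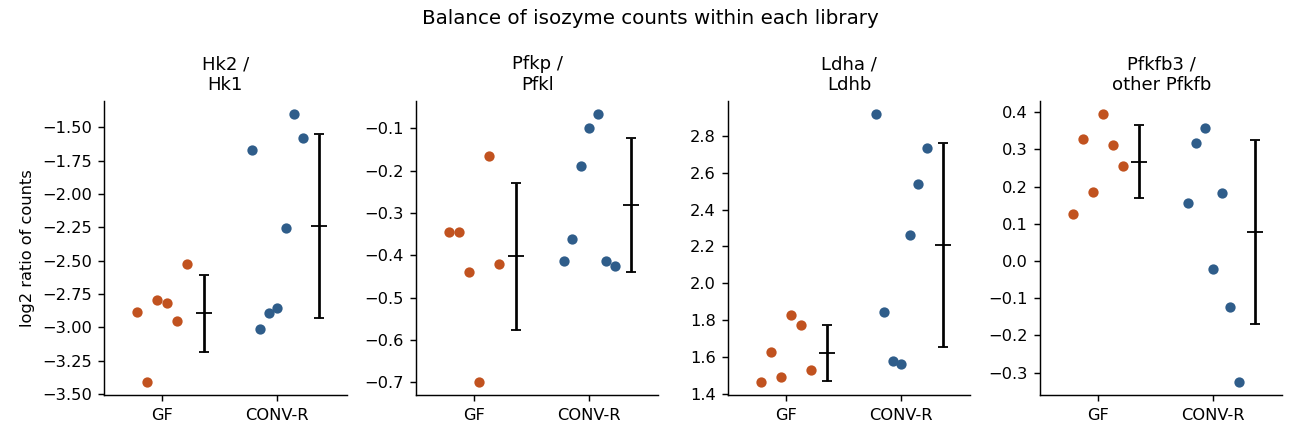
Log2 ratio of counts within each GF (orange) and CONV-R (blue) library for 4 isozyme balances, with the mean and SD beside the points; vertical axes differ between panels and do not start at 0. The Ldha to Ldhb ratio of the GF libraries lies within 1.47 to 1.83 and that of CONV-R 1 at 2.92.

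Per kilobase of exon, the order of levels was nearly the same in both groups. Pkm had 99.8 ± 8.58 CPM per kb in GF and 98.7 ± 10.9 in CONV-R (SD), followed by Aldoa with 88.9 ± 6.38 in GF and 97.6 ± 10.2 in CONV-R. Pkm was above Aldoa in 11 of 13 libraries, so this pair was close. Ldha followed with 64.8 ± 4.06 CPM per kb in GF and 69.6 ± 11.5 in CONV-R, then Pgk1 with 47.5 ± 4.11 in GF and 47.8 ± 4.64 in CONV-R, and Gpi1 with 34.6 ± 3.03 in GF and 33.6 ± 2.65 in CONV-R. Each was above the next in 13 of 13 libraries, down to Pfkfb3. Hk1 had 18.3 ± 1.14 CPM per kb in GF and 15.1 ± 2.11 in CONV-R, and Pfkfb3 had 9.92 ± 0.67 in GF and 10.4 ± 0.60 in CONV-R. Pfkp, at 4.36 ± 0.17 CPM per kb in GF and 4.23 ± 0.50 in CONV-R, was above Hk2, at 3.55 ± 0.55 in GF and 4.80 ± 1.79 in CONV-R, in 10 of 13 libraries. The 3 exceptions were CONV-R 1, 6 and 7. With the length of the longest RefSeq-matched transcript in place of all exons, Gpi1 was above Pgk1 in 13 of 13 libraries, so the order of that pair depended on the length used.

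The set varied less between GF than between CONV-R libraries for 7 of its 9 tested genes. This was not particular to the set: the median coefficient of variation over all tested genes was 8.83% in GF and 17.9% in CONV-R. Hk2 had the largest coefficient of variation in both groups, 15.6% in GF and 37.4% in CONV-R, followed in CONV-R by Ldha with 16.6%, against 6.27% in GF. Gpi1 and Pfkfb3 were the exceptions, with 8.76% and 6.75% in GF and 7.89% and 5.74% in CONV-R. The genes whose levels followed Pfkfb3 most closely, by Pearson correlation of log2 CPM deviations from the group mean over 13 libraries among 10484 genes, were Shkbp1 (r = 0.858), Vangl2 (0.809), Plscr1 (0.801), P3h3 (0.797) and Slc43a2 (0.791). Those that followed Hk1 were Aktip (r = 0.970), Gid4 (0.962), Lrp10 (0.960), Elp3 (0.956) and Vps4b (0.955). These are the highest values of a search over many genes in libraries that share depth and cell makeup, and are descriptions with no test.

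Among 20 other glycolytic isozymes and enzymes tested, 1 was higher and 7 were lower in GF. Over all genes these shares were 11.4% and 12.7%, and the 20 had a median log2 fold change of -0.23, where that of all tested genes was -0.01. With the hepatocyte covariate 1 was higher and 1 lower, and the median changed sign to 0.09; with the neutrophil covariate 0 were higher and 1 lower (median -0.41), and with the Kupffer cell covariate 1 and 3 (median -0.11). A further 3, Pgam2, Eno2 and Eno1b, were below the count minimum. Hk3, a hexokinase abundant in myeloid cells, measured 30.2, 35.2 and 48.2 CPM (lowest, median and highest) in GF and 34.7, 77.9 and 106.999 in CONV-R libraries, a log2 fold change of -0.99 ± 0.28 (SE, adjusted p = 0.0218, edgeR). The 4 CONV-R libraries above every GF library were again numbers 1, 5, 6 and 7, so leaving them out had to shrink the difference. Without them the log2 fold change was -0.11 (adjusted p = 0.640, edgeR), and without GF 9 alone the adjusted p was 0.0504. Bpgm, whose enzyme makes 2,3-bisphosphoglycerate and is abundant in red cells, was lower at 16.6 ± 1.33 CPM in GF and 24.1 ± 6.0 in CONV-R (SD; log2 fold change -0.54 ± 0.15, adjusted p = 0.0206). Alas2, the erythroid marker that could be tested, was lower too at 15.3 ± 6.27 CPM in GF and 28.8 ± 11.8 in CONV-R. The call of Bpgm was lost against code number 9 alone (adjusted p = 0.0917) and with the hepatocyte covariate (adjusted p = 0.0590). Gapdh, whose count is uncertain because 78.0% of its transcript windows occur in other transcripts, averaged 467 ± 52.6 CPM in GF and 445 ± 58.4 in CONV-R (log2 fold change 0.07 ± 0.10, adjusted p = 0.641). The fold changes set out along the pathway show the lower isozymes at several steps beside a listed gene near 0.

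**Figure D3:**
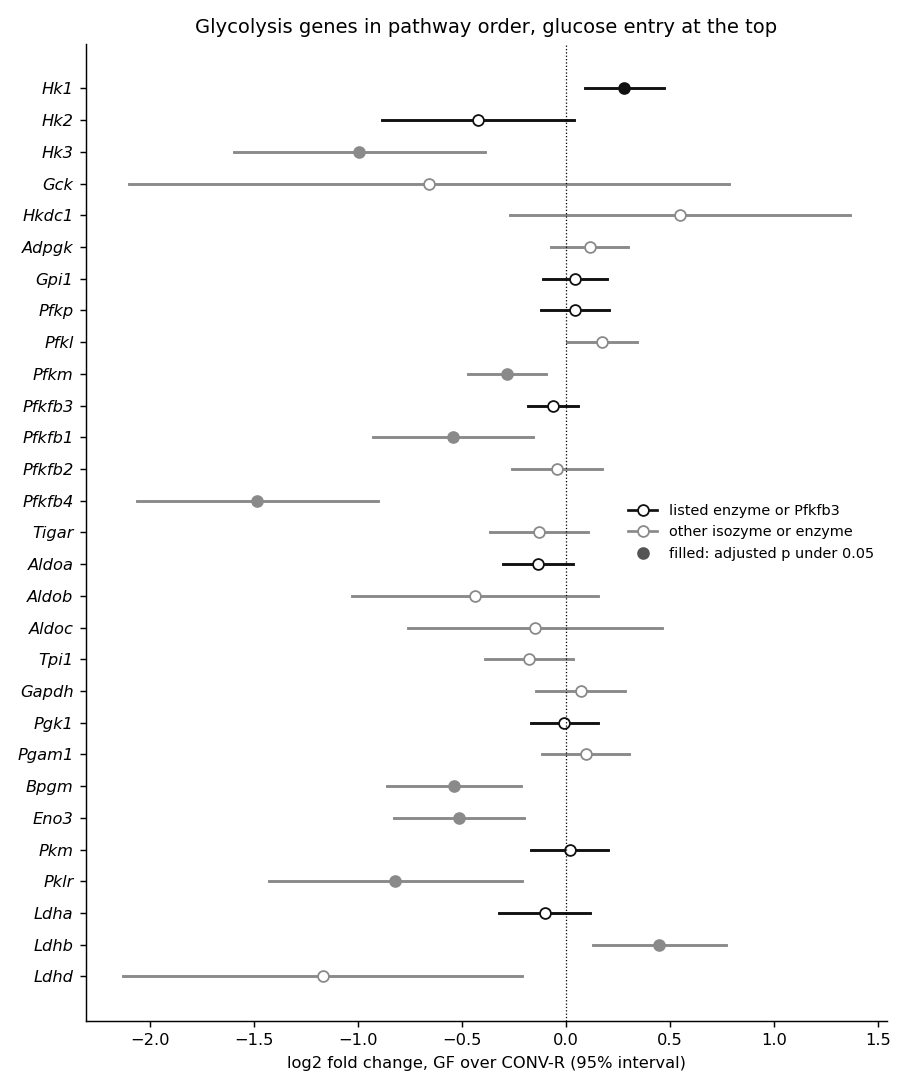
Log2 fold change, GF over CONV-R, with its 95% interval (horizontal axis) for the 9 tested genes of the set (black) and 20 other glycolytic genes (grey), from glucose entry at the top to lactate at the bottom; filled points passed an adjusted p of 0.05. Hk1 at 0.28 and Ldhb at 0.45 are the filled points right of 0, and Pfkfb4 at -1.48 is the lowest.

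Carriers of glucose and lactate were called in both directions. Of 12 tested, 2 were higher and 4 lower in GF, where 11.4% of all tested genes were higher and 12.7% lower, with a median log2 fold change of -0.49. Without CONV-R 1, 5, 6 and 7 the counts were 0 and 4 of 13 and the median was -0.02. With the neutrophil covariate 0 were higher and 0 lower, and with the hepatocyte covariate 0 and 1. Slc2a3, the high-affinity glucose transporter GLUT3, measured 9.48, 10.5 and 14.3 CPM (lowest, median and highest) in GF and 15.6, 18.2 and 55.6 in CONV-R libraries, a log2 fold change of -1.27 ± 0.30 (SE, adjusted p = 0.00968, edgeR). Every GF library was below every CONV-R library, and this was also so for Slc2a6, a lysosomal hexose transporter, with a log2 fold change of -1.85 ± 0.37 (adjusted p = 0.00393). Slc16a3, the lactate exporter MCT4, measured 3.51, 4.81 and 7.27 CPM in GF and 6.89, 8.65 and 38.0 in CONV-R libraries (log2 fold change -1.57 ± 0.43, adjusted p = 0.0202). The 2 highest values of Slc2a3 and Slc16a3, in CONV-R 6 and 7, fell in the libraries with neutrophil marker sums of 1329 and 2087 CPM. The next highest Slc2a3 value was in CONV-R 1, whose neutrophil sum of 113 CPM lay within the GF range. With the neutrophil sum as a covariate the log2 fold changes were -0.47 for Slc2a3, -1.11 for Slc2a6 and 0.09 for Slc16a3, none past the threshold. The hepatocyte covariate removed the same 3 calls, with log2 fold changes of -0.45 for Slc2a3 (adjusted p = 0.644), -0.85 for Slc2a6 (0.429) and -0.72 for Slc16a3 (0.651). Slc16a1, the lactate carrier MCT1, was lower (log2 fold change -0.49 ± 0.14, adjusted p = 0.0270), and Slc2a8, an intracellular glucose transporter, was higher (log2 fold change 0.29 ± 0.10, adjusted p = 0.0432). The call of Slc16a1 was lost without GF 9, 12 or 13 (adjusted p up to 0.0620) and that of Slc2a8 without any 1 library except GF 12 and CONV-R 3 and 4 (up to 0.0980). Bsg, the chaperone of the lactate carriers, named after its values were seen, was higher (log2 fold change 0.28 ± 0.09, adjusted p = 0.0439). No gene of this list was called higher without GF 8, 9, 10, 11 or 13 or CONV-R 1, 5, 6 or 7. Nor was one with limma-voom, any marker covariate or code number 10 alone, so the call of Bsg was lost in each. Slc2a1, the main glucose transporter GLUT1 of many endothelia, averaged 8.43 ± 1.30 CPM in GF and 12.0 ± 4.43 in CONV-R and was not called (log2 fold change -0.50 ± 0.22, adjusted p = 0.112).

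**Figure D4:**
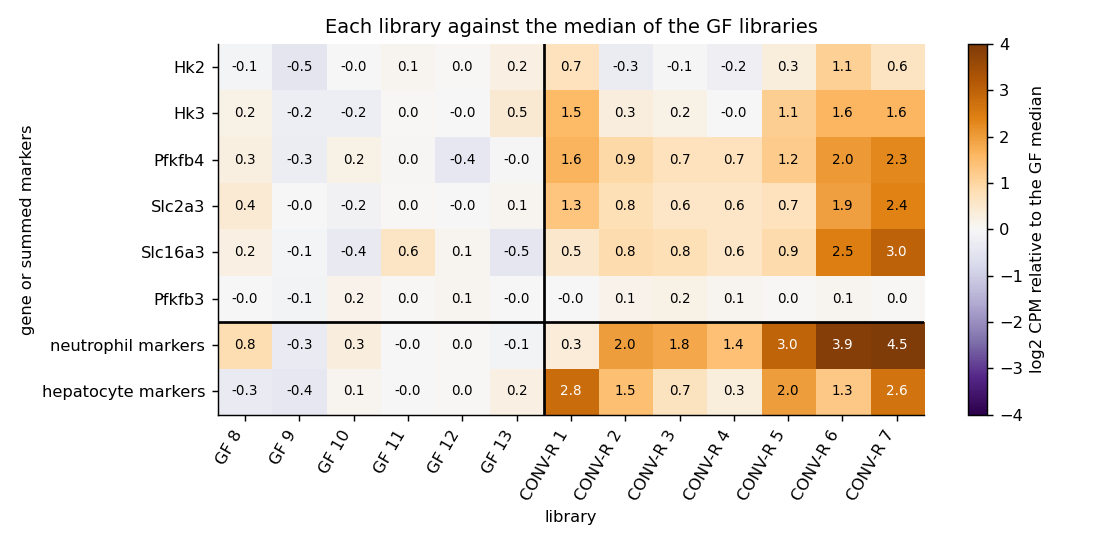
Log2 level of each library (columns, GF left of the line) relative to the median of the GF libraries, for 6 genes and for the summed neutrophil and hepatocyte markers (rows). Pfkfb3 stays between -0.1 and 0.2 in all 13 libraries, while Hk3, Pfkfb4, Slc2a3 and Slc16a3 are highest in CONV-R 6 and 7, where the neutrophil markers are 3.9 and 4.5 above the GF median. In CONV-R 1, where the neutrophil markers are only 0.3 above it, Hk3 is at 1.5, Pfkfb4 at 1.6, Slc2a3 at 1.3 and Slc16a3 at 0.5.

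Where pyruvate meets the mitochondria, 2 inhibitory kinases of pyruvate dehydrogenase were higher in GF. Of 13 genes tested there, 2 were higher and 1 lower, near the 11.4% and 12.7% over all tested genes, with a median log2 fold change of 0.01. Pdk4 measured 106, 137 and 167 CPM (lowest, median and highest) in GF and 50.9, 74.7 and 88.7 in CONV-R libraries, a log2 fold change of 0.90 ± 0.13 (SE, adjusted p = 0.000602, edgeR). Pdk1 measured 67.6, 74.1 and 79.6 CPM in GF and 52.7, 55.6 and 61.9 in CONV-R libraries, a log2 fold change of 0.38 ± 0.06 (adjusted p = 0.000651). For both, every GF library was above every CONV-R library, and both kept a positive log2 fold change within each code number and with each marker covariate, although with the hepatocyte covariate neither passed the threshold (adjusted p = 0.126 for Pdk4 and 0.0653 for Pdk1). Mpc1, a subunit of the mitochondrial pyruvate carrier, was lower (log2 fold change -0.30 ± 0.09, adjusted p = 0.0358), a call lost without GF 8, 9, 11, 12 or 13 or CONV-R 2 or 7 (adjusted p up to 0.0832).

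Side branches of the pathway moved in both directions. In the oxidative and nonoxidative pentose phosphate pathway, 0 of 8 genes were higher and 2 lower, with a median log2 fold change of -0.22. At an unadjusted p of 0.05 these were 0 and 5 (18.7% and 20.2% of all tested genes). They were 0 and 3 with DESeq2 (13.6% and 15.9%) and with limma-voom (13.7% and 11.8%). With the hepatocyte covariate they were 0 and 0 (1.79% and 1.55%), with the Kupffer cell covariate 0 and 1 (6.57% and 5.68%) and with the neutrophil covariate 0 and 2 (3.71% and 5.88%). Taldo1, transaldolase, averaged 118 ± 6.15 CPM in GF and 154 ± 19.4 in CONV-R (SD; log2 fold change -0.39 ± 0.08, adjusted p = 0.00546), with every GF library below every CONV-R library, and Pgd was lower too (log2 fold change -0.23 ± 0.07, adjusted p = 0.0388), a call lost without GF 8, 9, 10, 12 or 13 or CONV-R 5 or 7 (adjusted p up to 0.0803). The log2 fold change of Taldo1 was -0.14 with the hepatocyte covariate (adjusted p = 0.544), -0.41 with the neutrophil covariate (adjusted p = 0.0540) and -0.22 without CONV-R 1, 5, 6 and 7 (adjusted p = 0.0247). In glycogen metabolism 2 of 12 were higher and 3 lower (median -0.07; 11.4% and 12.7% of all tested genes). With the hepatocyte covariate these were 0 and 1 (1.79% and 1.55%) and with the neutrophil covariate 1 and 0 (3.71% and 5.88%). Pgm1, a gene of the phosphoglucomutase family, measured 112, 118.7 and 141 CPM (lowest, median and highest) in GF and 53.7, 73.7 and 88.3 in CONV-R libraries (log2 fold change 0.70 ± 0.10, adjusted p = 0.000535), and every GF library was above every CONV-R library. Pygm, muscle glycogen phosphorylase, was higher (log2 fold change 0.52 ± 0.11), and Pygl, the liver form, and Pgm2 were lower (log2 fold changes -1.24 ± 0.30 and -0.40 ± 0.10). The locus behind the symbols Pgm1 and Pgm2, which went opposite ways, was not checked, so neither is read as the main enzyme. In gluconeogenesis, a pathway of hepatocytes, 1 of 8 was higher and 3 lower (median -0.12), beside the same 11.4% and 12.7% of all tested genes. With the hepatocyte covariate these were 0 and 0 (1.79% and 1.55%) and with the neutrophil covariate 0 and 1 (3.71% and 5.88%). G6pc, glucose-6-phosphatase, averaged 1.09 ± 0.273 CPM in GF and 9.37 ± 5.78 in CONV-R (log2 fold change -3.09 ± 0.43, adjusted p = 0.000490), and Pcx and Fbp1 were lower as well (log2 fold changes -0.94 ± 0.30 and -1.05 ± 0.35), beside the lower hepatocyte marker sums. With that sum as a covariate the log2 fold changes were -1.19 for G6pc (adjusted p = 0.0624), 0.50 for Pcx and 0.60 for Fbp1. The calls of Pcx and Fbp1 were also lost without any 1 GF library or without CONV-R 1, 5 or 7, and that of Fbp1 without CONV-R 2 (adjusted p up to 0.0692 for Pcx and 0.0889 for Fbp1). Pck2, the mitochondrial form of phosphoenolpyruvate carboxykinase, was higher (log2 fold change 0.39 ± 0.10, adjusted p = 0.0126).

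Genes of the hypoxia pathway, whose factors have glycolytic enzymes among their known targets, were higher or not called. Of 18 tested, 7 were higher and 0 lower in GF, where 11.4% of all tested genes were higher and 12.7% lower, with a median log2 fold change of 0.21. The count was 3 and 0 with the hepatocyte covariate, 2 and 0 with the neutrophil covariate and 6 and 0 with the Kupffer cell covariate. Against code number 10 alone it was 5 and 0 and against code number 9 alone 9 and 1. At an unadjusted p of 0.05 it was 11 higher and 0 lower, where 18.7% and 20.2% of all tested genes were, and DESeq2 called 7 and 0 and limma-voom 8 and 0. Ddit4, an inhibitor of mTORC1 signalling, measured 104, 139 and 217 CPM (lowest, median and highest) in GF and 17.7, 42.2 and 49.3 in CONV-R libraries, a fold of 4.11 and a log2 fold change of 2.04 ± 0.22 (SE, adjusted p = 7.76e-05, edgeR). Bnip3, a mitophagy receptor, measured 35.6, 39.2 and 46.5 CPM in GF and 17.7, 20.6 and 26.8 in CONV-R libraries, a fold of 1.87 (log2 fold change 0.90 ± 0.10, adjusted p = 8.01e-05). For both, every GF library was above every CONV-R library, and both passed the threshold in all 26 alternative settings. Ndrg1, a stress-responsive gene, and Kdm3a, a histone demethylase, were higher with log2 fold changes of 1.05 ± 0.20 and 0.27 ± 0.06. With the hepatocyte covariate they were 0.40 for Ndrg1 (adjusted p = 0.442) and 0.11 for Kdm3a (0.556), and with the neutrophil covariate neither passed (0.117 and 0.0717). Of the factors themselves, Epas1, which encodes HIF-2α and is prominent in endothelium, averaged 1386 ± 86.1 CPM in GF and 999.9 ± 166 in CONV-R (SD; log2 fold change 0.47 ± 0.11, adjusted p = 0.00989). The call of Epas1 was lost with the hepatocyte covariate (log2 fold change 0.11, adjusted p = 0.715), with the neutrophil covariate (0.0669) and against code number 10 alone (0.0629). Hif1a averaged 111 ± 5.45 in GF and 104 ± 15.4 in CONV-R (log2 fold change 0.10 ± 0.09, adjusted p = 0.406). Of the 7 genes of the glycolysis set with ACGTG in a promoter window, Hk1 was the only one higher in GF. It was also the only one of all 9 tested, where 11.4% of all tested genes were higher. Its call was near the threshold and did not pass with any marker covariate.

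**Figure D5:**
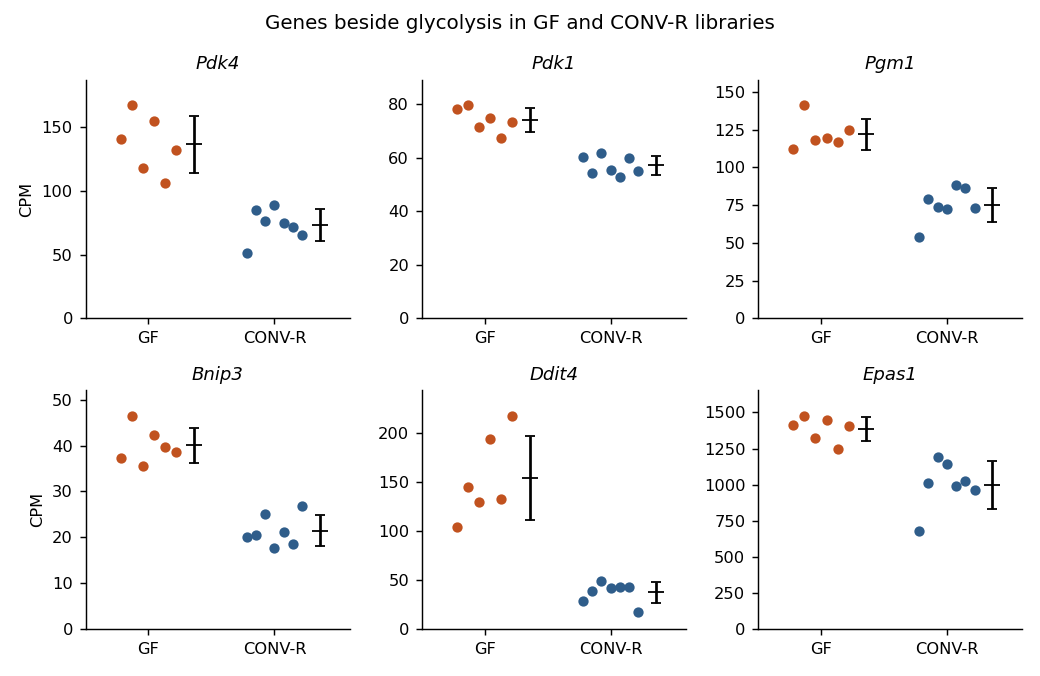
Level in CPM of the scaled library (vertical axes from 0) of Pdk4, Pdk1, Pgm1, Bnip3, Ddit4 and Epas1 in each GF (orange) and CONV-R (blue) library, with the mean and SD beside the points. In each of the 6 genes every GF library lies above every CONV-R library, as in Pdk1, with 67.6 to 79.6 CPM in GF and 52.7 to 61.9 in CONV-R. The 6 were picked from genes called higher in GF, and genes of the same lists whose groups overlap are not shown. Over all tested genes 5.94% separated this way.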

How the data were processed

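The authors sequenced stranded poly(A) libraries and deposited raw counts per gene symbol, in 1 table with a column for each library. The submitters' processing notes name STAR 2.7.5a and featureCounts 2.0.1 (Subread), with FastQC 0.11.9 and DESeq2 1.42.1, on mm10. Annotation, strand setting, handling of multi-mapping reads and filters were not given in the sources used here, so genes with near-identical copies or overlapping neighbours can share or lose reads.

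Tests on these deposited counts used edgeR 4.0.16 (R 4.3.3, limma 3.58.1): filterByExpr with a minimum count of 10 and a minimum total of 15, TMM scaling, a robust quasi-likelihood fit of GF against CONV-R over 13915 genes, and Benjamini-Hochberg adjustment with a threshold of 0.05. The SE is the absolute log2 fold change over the square root of F, and 95% intervals use edgeR's total degrees of freedom. CPM refer to the TMM-scaled library. The fit was tested on simulated data. Balances are log2 ratios of counts with 0.5 added, compared over all 1716 splits with scipy 1.17.1 in Python 3.11.15. Pairs of libraries in a group differed by more than sampling noise, with a chi-square per degree of freedom of at least 13.4 in GF and 16.8 in CONV-R. The share of transcript windows found in other genes came from GENCODE M21 transcripts, matched on either strand.

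The genes and lists were chosen with earlier results of these data known. Named beside the set are up to 5 called members of each list with the smallest p, the isozymes of each balance, and the 5 genes most correlated with Pfkfb3 and with Hk1 at a mean of at least 5 CPM; Gapdh, Slc2a1, Hif1a, Pklr and Bsg were added after their values were seen, and the result of 1 named gene is not reported here. The alternatives tried were limma-voom with quality weights, DESeq2 1.42.0, other scaling, filters and a stricter threshold, each CONV-R code number alone, marker sums as covariates, and leaving out each library; leaving out CONV-R 1, 5, 6 and 7 together was chosen after seeing the data.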

Additional observations from a re-analysis of the deposited data

Results flagged for a closer look

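Among the levels of 42 genes and the 4 balances of isozymes, searched in each group for a single library that stands apart from the rest by more than Dixon's 95% critical value, 4 of 92 groups had one; chance alone gives about 1 in 20. None of the glycolysis set was among them. For Slc2a6, GF 8 was the highest GF library at 3.17 CPM, with the others between 1.90 and 2.35. For Slc2a8, GF 12 was the lowest GF library at 26.4 CPM, with the others between 31.5 and 33.0. For Mpc1, GF 10 was the highest GF library at 18.4 CPM, with the others between 13.8 and 15.4, and CONV-R 6 was the lowest CONV-R library at 14.2 CPM, with the others between 18.6 and 21.1.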

How the results depend on the processing

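The 1 gene of the set higher in GF, Hk1, became 0 with limma-voom, library totals in place of TMM, a threshold of 0.01, code number 10 alone, each of the 3 marker covariates, and without CONV-R 1, 5, 6 and 7; leaving out single libraries gave 0 to 1. The 0 lower in GF became 1 with library totals (Aldoa) and with code number 9 alone (Hk2). Over all genes, 1593 higher and 1764 lower became 971 and 2773 with library totals (25.9% of calls higher in place of 47.5%), 629 and 579 at a threshold of 0.01, 978 and 1000 with code number 10 alone, 249 and 215 with the hepatocyte, 914 and 790 with the Kupffer cell and 516 and 818 with the neutrophil covariate, while leaving out single libraries gave 1013 (without GF 9) to 1765 higher and 1208 to 1972 lower. The cause was not tested. Fewer samples enter the fits by code number.

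Some log2 fold changes changed sign, and not only those near 0. Called genes among them included Slc16a3 (-1.57 in the main fit), Pygl (-1.24), Fbp1 (-1.05), Hk3 (-0.99), Pcx (-0.94) and Ldhb (0.45). With library totals the changed values were -0.054 for Gpi1, -0.055 for Pfkp and -0.078 for Pkm, with limma-voom -0.042 and with a minimum count of 50 -0.0023 for Pkm. With code number 10 alone they were -0.010 for Gpi1 and -0.041 for Pfkp, and with code number 9 alone 0.070 for Pgk1. With the hepatocyte covariate they were -0.0020 for Hk1, 0.13 for Hk2, -0.091 for Pfkp, -0.21 for Pkm, 0.24 for Ldha, 0.068 for Hk3, -0.027 for Slc2a8, 0.028 for Pgd, 0.50 for Pcx, 0.60 for Fbp1, 0.13 for Pygl and -0.024 for Ldhb. With the Kupffer cell covariate they were -0.013 for Pkm and 0.053 for Ldha, and with the neutrophil covariate -0.094 for Gpi1, -0.16 for Pfkp, -0.014 for Pkm, 0.094 for Slc16a3 and 0.12 for Pfkfb2. Without CONV-R 1, 5, 6 and 7 they were 0.15 for Hk2, -0.054 for Pfkp, -0.077 for Pkm and 0.12 for Ldha, and the Hk2 to Hk1 balance was 0.026. Leaving out single libraries gave -0.0078 to 0.062 for Pfkp, -0.055 to 0.0063 for Pgk1, -0.035 to 0.037 for Pkm and -0.11 to 0.013 for Pfkfb2. With code number 9 alone the differences in balance were -1.15 for Hk2 to Hk1 and -0.89 for Ldha to Ldhb.

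Of the 32 named genes past the threshold, 23 kept their direction in every alternative, 20 stayed past it without any 1 library and 2 passed it in every alternative. With library totals the correlations of Vangl2 and Plscr1 with Pfkfb3 were 0.68 each. The RefSeq exon table was not used here, so the length alternative took GENCODE transcripts matched to RefSeq. CONV-R 6 had the fewest counts, 7590320, and CONV-R 1, 5 and 7 had the next fewest. Counts per gene do not separate splice forms or reads shared by copies such as Pgk1 and Pgk1-rs7. No paired analysis was possible because the groups share no replicate numbers, GF being 8 to 13 and CONV-R 1 to 7.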
